A study of Mus musculus with 6 samples.

Results

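Synthesis of fatty acids and their storage as triglyceride were followed through 52 genes, taken as the rows of the deposited table whose symbol was on a list. The list covered enzymes of de novo lipogenesis, desaturases, elongases, their regulators, triglyceride synthesis, lipid droplets, lipolysis and fatty acid binding. The table held 31950 genes, and each of the 52 symbols matched 1 row. Each of 6 livers, 3 of them WT and 3 *β-catenin Δ(ex3)/+*, gave 1 RNA library, and values are listed in the order of replicates 1 to 3. All 6 mice were labelled as C57BL/6 and 8 weeks of age. The *β-catenin Δ(ex3)/+* mice carry 1 allele of *Ctnnb1*, the β-catenin gene, without exon 3, which encodes the residues through which the protein is marked for degradation. In the study, Cre removed exon 3 from a floxed allele in the liver, and its metabolic experiments used a tamoxifen-induced Cre driven by albumin, a gene of hepatocytes. Which Cre was used for the sequenced livers, whether the WT mice received Cre or tamoxifen, and the sex of the mice were not given in the sources used here. The whole liver was sequenced, so that fewer cells of a type and less RNA per cell cannot be told apart.

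De novo lipogenesis makes fatty acids from carbohydrate and other fuels: citrate is cleaved to acetyl-CoA, acetyl-CoA is carboxylated to malonyl-CoA, and fatty acid synthase joins these into palmitate. Elongases and desaturases then lengthen palmitate and place double bonds in it, and a separate set of both works on the essential fatty acids of the diet to make polyunsaturated fatty acids. Fatty acids are joined to glycerol as triglyceride, which hepatocytes keep in droplets coated by perilipins or export in lipoproteins, and lipases set them free again. In liver these genes are known targets of SREBP-1c and ChREBP, transcription factors that respond to insulin and to glucose.

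Values are FPKM, fragments of a gene relative to transcript length and to all mapped fragments, and a level given here is always FPKM. By an estimate from the steps between low values, the libraries held 17.0 to 24.7 M fragments. The genotype labels were checked on β-catenin target genes. Of 15, 9 were higher in the mutant livers and 0 lower by at least 2-fold, against 8.17% and 4.52% of all genes tested. By the limma adjusted p-value alone 12 were higher and 2, *Lect2* and *Cyp2e1*, lower. *Slc1a2*, with a WT mean of 0.283 FPKM, was tested only because of its level in the mutant livers and had to be higher. Glutamine synthetase (*Glul*) was at 102 to 105 FPKM in WT and 619 to 633 FPKM in mutant livers. Hepatocyte genes were abundant in all 6 livers, albumin (*Alb*) at 39618 to 43342 FPKM in WT and 24721 to 25012 FPKM in mutant livers. The WT livers went against their age label in their levels of genes of the young liver. All 9 such genes tested were lower in the mutant livers, against 4.52% of all genes tested. *H19*, *Igf2*, *Dlk1*, *Igf2bp3*, *Bex1* and *Peg3* passed the filter only through the WT livers and had to be lower. *Afp*, *Gpc3* and *Mest* passed it in both groups. *Afp*, a serum protein of the fetus, was at 601 to 612 FPKM in WT and 2.38 to 2.81 FPKM in mutant livers, and *H19* at 2320.4 to 2374 FPKM and 0.0107 to 0.04803 FPKM. The summed level of the 10 listed genes was 3851 to 3920 FPKM in WT and 5.82 to 6.27 FPKM in mutant livers. Of 10 genes of the adult liver, 8 were higher in the mutant livers and 0 lower, against 8.17% and 4.52% of all genes tested. *Mup20* and *Obp2a*, at 0 FPKM in each WT liver, passed the filter only through the mutant livers and had to be higher. *Xist*, which marks the inactive X chromosome, was at 20.3 to 22.2 FPKM in WT and at most 0.0146 FPKM in mutant livers, and the Y-linked *Eif2s3y* was at most 0.0169 FPKM in WT and 9.2003 to 9.94 FPKM in mutant livers. Genotype, sex-linked genes and young-liver genes therefore separate the same 2 groups of 3 livers and cannot be told apart in any result that follows.

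All 6 enzymes of de novo lipogenesis on the list were higher in the *β-catenin Δ(ex3)/+* livers, and the genes that were lower were *Fads2*, *Elovl2*, *Elovl5*, *G0s2*, *Fabp2* and *Fabp5*. A gene was called changed at a limma adjusted p-value under 0.05 and a fold change of at least 2 on the log2(FPKM + 1) scale. The p-values were adjusted over all genes tested by the Benjamini-Hochberg method, and the scale understates the change of genes with low FPKM. Of the 52 genes, 49 had a mean of at least 0.5 FPKM and were tested. Of these 20 were higher and 6 lower in the mutant livers, 53.1% in all, whereas 12.7% of all 13243 genes tested were changed. The shares by direction were 40.8% higher against 8.17% of all genes, and 12.2% lower against 4.52% of all genes. The 3 mutant livers did not overlap the 3 WT livers for 44 of the 49 genes, 89.8%, against 66% of all genes tested. The median log2 fold change was 0.61, beside 0.14 over all genes tested. For 8 of the 20 higher genes the WT mean was under 0.5 FPKM, so that they passed the filter only through the mutant livers, where they had to be higher. These were *Acacb*, *Scd2*, *Elovl3*, *Thrsp*, *Lpin2*, *Plin1*, *Cidea* and *Plin4*. The other 12 passed the filter in both groups. Over all genes 1082 were higher and 598 lower, a split that became 851 and 751 with median-ratio scaling, and 797 and 812 with quantile-normalized values. The median over all genes tested shifted by -0.14 and -0.16 under these scalings. Among the lipid genes they gave 19 higher and 6 lower, and 18 higher and 6 lower. For a single gene, 3 livers against 3 cannot give a two-sided exact permutation p under 0.1, which every gene with groups that did not overlap reached.

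**Figure D1:**
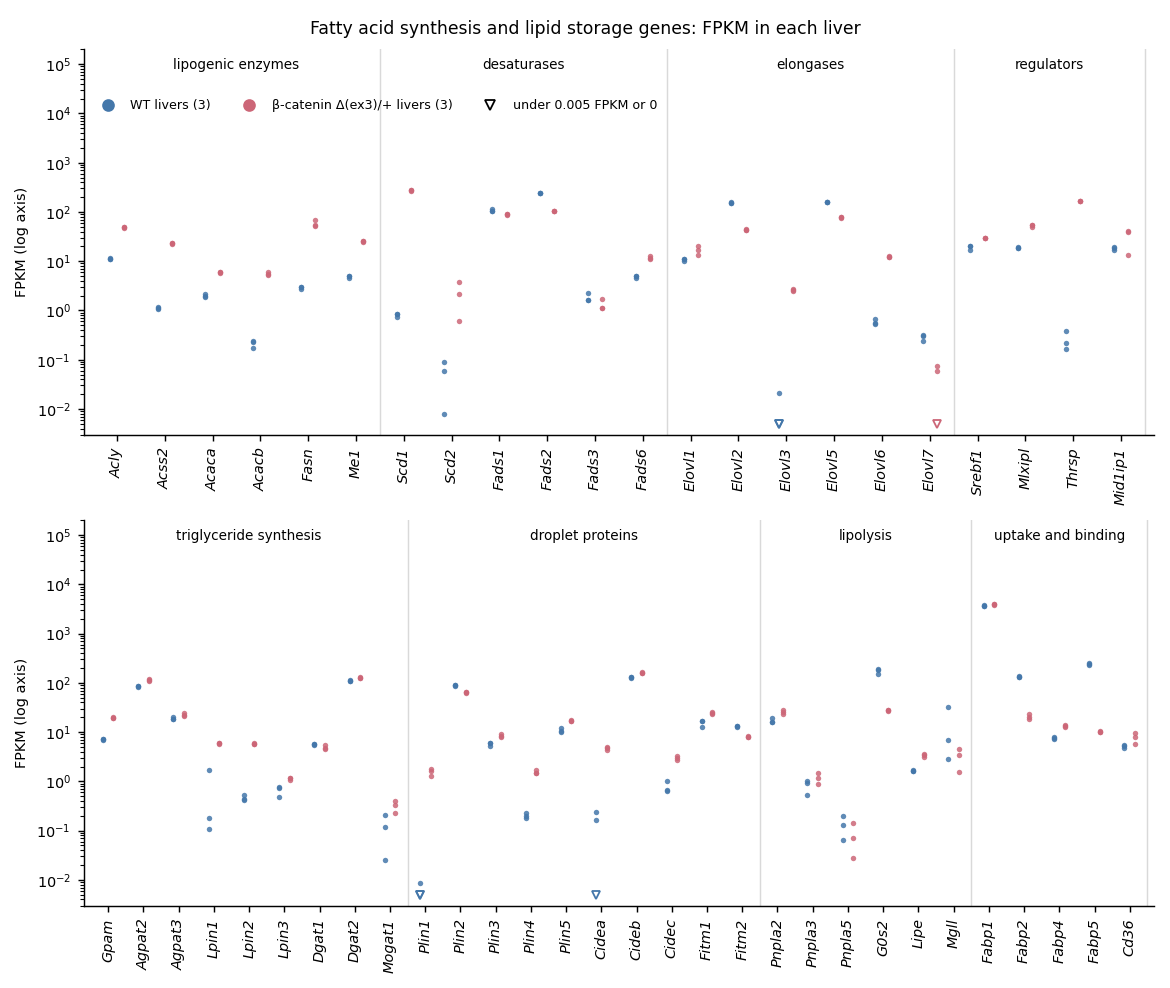
FPKM of the 52 genes in each of the 6 livers, on a log axis, grouped by role; each point is 1 liver, blue for WT and red for *β-catenin Δ(ex3)/+*, and open triangles are values under 0.005 FPKM or 0. The 6 lipogenic enzymes stand higher in every mutant liver, *Scd1* and *Thrsp* go from under 1 FPKM to 273 to 278 FPKM and 163 to 167 FPKM, and *Fads2*, *Elovl2*, *Elovl5*, *G0s2*, *Fabp2* and *Fabp5* stand lower.

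**Figure D2:**
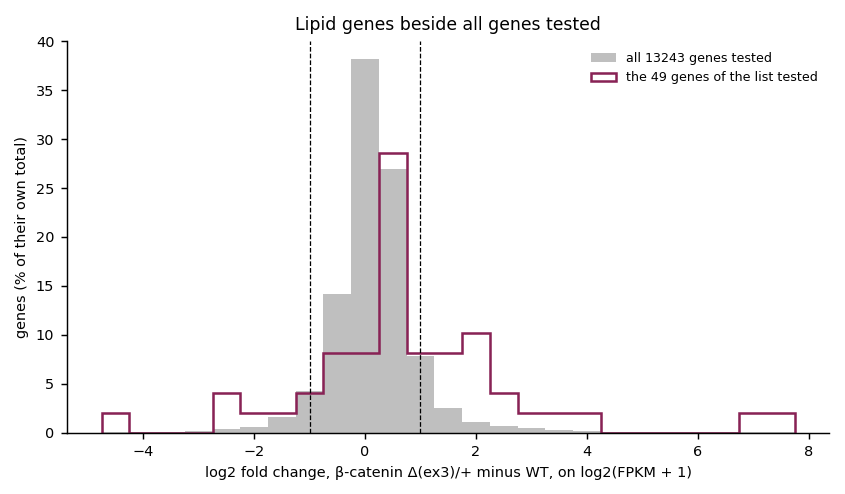
Distribution of the log2 fold change (mutant minus WT, on the log2(FPKM + 1) scale) of the 49 lipid genes tested, as an outline, and of all 13243 genes tested, in grey; the vertical axis is the percentage of genes of each set per bin of width 0.5, and dashed lines mark a fold change of 2. The outline has more of its genes outside the dashed lines, 53.1% of the 49 being changed against 12.7% of all.

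The DNA upstream of 5 changed genes is shown because so many genes of the list moved together. They are *Fasn*, *Elovl6* and *Plin1* for the synthase, the elongases and the droplet proteins, *Mlxipl* for the regulators and *Fabp2* for the genes that fell. All 5 were chosen among called genes with earlier results of these data known, and *Mlxipl* and *Fabp2* were added after their values had been seen. The RefSeq table matched 43 of the 52 symbols, not *Scd1*, *Scd2*, *Dgat1*, *Dgat2*, *Fads1*, *Elovl3*, *Cidea*, *Fabp4* and *Fabp5*. Each sequence is that of RefSeq on GRCm38.p6, read 5′ to 3′ in the direction of the gene. It ends at the annotated start of transcription or, for *Elovl6* and *Plin1*, before the first base that GENCODE M21 places in an exon of the gene. On the minus strand the windows are chr11:120824548-120824797 for *Fasn* and chr7:79732904-79733026 for *Plin1*. On the plus strand they are chr5:135089640-135089889 for *Mlxipl*, chr3:129532136-129532354 for *Elovl6* and chr3:122894822-122895071 for *Fabp2*. Capitals mark matches, on either strand, to CCAAT, the box bound by NF-Y, and to CACGTG, an E-box of the kind bound by USF and ChREBP.
Fasn: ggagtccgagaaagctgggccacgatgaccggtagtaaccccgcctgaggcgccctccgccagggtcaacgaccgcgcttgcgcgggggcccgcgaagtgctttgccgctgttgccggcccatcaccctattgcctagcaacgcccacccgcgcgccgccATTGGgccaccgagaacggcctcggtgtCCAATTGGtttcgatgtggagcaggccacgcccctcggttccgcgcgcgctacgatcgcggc
Mlxipl: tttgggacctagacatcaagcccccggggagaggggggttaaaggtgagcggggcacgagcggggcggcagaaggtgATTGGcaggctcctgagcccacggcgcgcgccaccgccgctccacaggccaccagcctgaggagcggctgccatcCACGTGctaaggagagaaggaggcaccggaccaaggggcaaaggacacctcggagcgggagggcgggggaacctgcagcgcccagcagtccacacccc
Elovl6: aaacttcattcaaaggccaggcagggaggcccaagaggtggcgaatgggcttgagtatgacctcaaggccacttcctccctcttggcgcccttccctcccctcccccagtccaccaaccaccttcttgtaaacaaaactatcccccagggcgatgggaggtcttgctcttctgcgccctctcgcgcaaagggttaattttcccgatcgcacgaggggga
Plin1: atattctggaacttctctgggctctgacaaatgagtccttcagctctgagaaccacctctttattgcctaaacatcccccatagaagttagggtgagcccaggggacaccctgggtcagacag
Fabp2: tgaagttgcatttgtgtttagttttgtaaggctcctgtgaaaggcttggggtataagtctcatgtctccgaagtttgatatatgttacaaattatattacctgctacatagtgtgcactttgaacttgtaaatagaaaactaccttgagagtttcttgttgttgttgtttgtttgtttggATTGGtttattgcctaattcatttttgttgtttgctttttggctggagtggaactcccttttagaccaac
CCAAT matches begin 90, 62 and 59 bases before the *Fasn* start, the last 2 overlapping on opposite strands. They begin 173 bases before the *Mlxipl* start and 70 bases before the *Fabp2* start, and CACGTG begins 98 bases before the *Mlxipl* start. In windows of 250 bases before the start, CCAAT was found for 9 of the 16 higher genes with an entry, against 37.5% of the 27025 genes of the table. The 9 were *Acacb*, *Acss2*, *Fasn*, *Gpam*, *Lpin2*, *Me1*, *Mlxipl*, *Plin4* and *Thrsp*. It was also found for 2 of 5 lower genes and for 8 of 19 genes tested without a call. CACGTG was found for 2 of the 16, 1 of the 5 and 2 of the 19, against 6.86% of genes. TCACNCCAC, the core of a sterol regulatory element, was found for 1 of the 16, *Mlxipl*, at another of its starts, against 1.23% of genes. TATAAA was found for 1 of the 16, *Acacb*, against 14.3% of genes. CTTTGAT, a core of sites bound by TCF proteins with β-catenin, was found for 0 of the 16, against 3.72% of genes. A match of letters is a description of the window and was not tested as a site.

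Each of the 6 lipogenic enzymes was higher in the mutant livers, from the source of acetyl-CoA to the synthase itself. Of all genes tested 8.17% were higher. *Acacb*, with a WT mean of 0.213 FPKM, passed the filter only through the mutant livers and had to be higher. *Fasn* (ENSMUSG00000025153, chr11:120805846-120824547), fatty acid synthase, had 2.99, 2.79 and 2.97 FPKM in WT livers 1 to 3 and 52.6, 53.6 and 67.5 FPKM in mutant livers 1 to 3. No mutant liver came near the WT range, and mutant liver 3 was the highest of all. The log2 fold change was 3.90 ± 0.10 (SE; limma adjusted p = 1.09e-06), and the ratio of the mean FPKM was 19.8. *Acly* (ENSMUSG00000020917, chr11:100476353-100528000), which cleaves citrate to acetyl-CoA in the cytosol, had 10.9, 10.95 and 11.5 FPKM in WT and 48.7, 47.2 and 48.4 FPKM in mutant livers, and its log2 fold change was 2.02 ± 0.0402 (SE; limma adjusted p = 3.49e-07). *Acss2* (ENSMUSG00000027605, chr2:155517948-155576980), which makes acetyl-CoA from acetate, went from 1.05, 1.19 and 1.15 FPKM to 23.3, 23.7 and 22.4 FPKM, a ratio of 20.5 and a log2 fold change of 3.50 ± 0.0516 (SE; limma adjusted p = 1.13e-07). In every liver *Acss2* was below *Acly*.

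The carboxylases that make malonyl-CoA rose unequally. *Acaca* (ENSMUSG00000020532, chr11:84129672-84401645), the cytosolic form that feeds synthesis, had 1.94, 1.902 and 2.15 FPKM in WT and 6.13, 5.99 and 5.64 FPKM in mutant livers, and its log2 fold change was 1.21 ± 0.0598 (SE; limma adjusted p = 1.61e-05). *Acacb* (ENSMUSG00000042010, chr5:114146535-114250761), the form at the outer mitochondrial membrane whose malonyl-CoA restrains fatty acid oxidation, had 0.231, 0.235 and 0.172 FPKM in WT and 5.32, 6.09 and 5.49 FPKM in mutant livers, and its log2 fold change was 2.45 ± 0.0673 (SE; limma adjusted p = 1.33e-06). In WT livers *Acacb* was far below *Acaca*, and in the mutant livers the levels of the pair overlapped. *Me1* (ENSMUSG00000032418, chr9:86581371-86695953), malic enzyme, a source of the NADPH that the synthase consumes, had 4.899, 4.95 and 4.48 FPKM in WT and 26.3, 26.2 and 24.96 FPKM in mutant livers, and its log2 fold change was 2.22 ± 0.05204 (SE; limma adjusted p = 6.91e-07). The summed level of the 6 enzymes was 22.0 to 22.5 FPKM in WT and 162 to 174 FPKM in mutant livers, and their median log2 fold change was 2.33.

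Of 6 desaturases tested, *Scd1*, *Scd2* and *Fads6* were higher in the mutant livers, *Fads2* was lower, and *Fads1* and *Fads3* were not called. Of all genes tested 8.17% were higher and 4.52% lower. *Scd2*, with a WT mean of 0.0517 FPKM, passed the filter only through the mutant livers and had to be higher. *Scd1* (ENSMUSG00000037071, chr19:44394455-44407709), the stearoyl-CoA desaturase that makes oleate and palmitoleate, had 0.839, 0.835 and 0.7501 FPKM in WT and 273, 278 and 278 FPKM in mutant livers. Each WT liver was below 1 FPKM, and the 3 mutant livers were alike. The ratio of the means was 342 and the log2 fold change was 7.26 ± 0.0394 (SE; limma adjusted p = 3.93e-09), rank 15 among all genes tested by increase. *Fads2* (ENSMUSG00000024665, chr19:10062765-10101746), the delta-6 desaturase that opens the synthesis of polyunsaturated fatty acids, had 245, 246 and 247 FPKM in WT and 105, 105 and 104 FPKM in mutant livers, and its log2 fold change was -1.22 ± 0.0251 (SE; limma adjusted p = 3.90e-07). *Fads1*, the delta-5 desaturase of the same route, had 105, 114 and 106 FPKM in WT and 90.7, 88.1 and 90.05 FPKM in mutant livers, groups that did not overlap but a log2 fold change of -0.27 ± 0.04097 (SE; limma adjusted p = 0.00205) that was under 2-fold.

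The calls of *Scd2* and *Fads6* did not hold under every alternative. *Scd2* (ENSMUSG00000025203, chr19:44293674-44306864), the paralog prominent in brain and in the young animal, had 0.0886, 0.00795 and 0.0585 FPKM in WT and 2.12, 0.621 and 3.87 FPKM in mutant livers, from 0.223% to 1.39% of *Scd1* in the mutant livers. Protein-coding transcripts of the paralogs share a stretch of 147 bases, and 1.47% of windows of 75 bases in *Scd2* occur in *Scd1*, so that some fragments could be assigned to either gene. Its log2 fold change of 1.47 ± 0.38 (SE; limma adjusted p = 0.0183) no longer passed without WT replicate 2, WT replicate 3 or mutant replicate 1, with limma adjusted p-values of 0.0532, 0.0504 and 0.0562. *Fads6* (ENSMUSG00000044788, chr11:115279622-115297663), a desaturase-like gene, had 4.67, 4.94 and 4.91 FPKM in WT and 11.04, 12.5 and 11.5 FPKM in mutant livers, and its log2 fold change was 1.12 ± 0.0597 (SE; limma adjusted p = 2.21e-05) and was 0.95 with median-ratio scaling and 0.88 with quantile-normalized values, under 2-fold in each case. *Fads3* overlapped between the groups.

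Of 5 elongases tested, 2 were higher and 2 lower, against 8.17% and 4.52% of all genes tested. *Elovl3*, with a WT mean of 0.0069 FPKM, passed the filter only through the mutant livers and had to be higher. *Elovl6* (ENSMUSG00000041220, chr3:129532355-129634971), which lengthens palmitate to stearate, had 0.553, 0.543 and 0.673 FPKM in WT and 11.98, 12.1 and 12.7 FPKM in mutant livers, and its log2 fold change was 3.06 ± 0.0584 (SE; limma adjusted p = 2.94e-07). *Elovl3* (ENSMUSG00000038754, chr19:46131897-46135694), an elongase of saturated and monounsaturated chains, was listed at 0, 0 and 0.0207 FPKM in WT and had 2.55, 2.71 and 2.48 FPKM in mutant livers (log2 fold change 1.83 ± 0.0569, limma adjusted p = 2.31e-06). Both were under 1 FPKM in each WT liver, and *Elovl6* stood above *Elovl3* in each mutant liver.

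The elongases of polyunsaturated fatty acids had high levels in WT livers and fell. *Elovl2* (ENSMUSG00000021364, chr13:41182381-41220405), which acts on the longest of these chains, had 153, 156 and 155 FPKM in WT and 43.8, 44.9 and 43.7 FPKM in mutant livers, and its log2 fold change was -1.79 ± 0.0297 (SE; limma adjusted p = 1.76e-07). *Elovl5* (ENSMUSG00000032349, chr9:77917364-77984519), which acts between the delta-6 and delta-5 desaturases, had 156, 161 and 158 FPKM in WT and 76.1, 79.3 and 78.2 FPKM in mutant livers, and its log2 fold change was -1.01 ± 0.0311 (SE; limma adjusted p = 2.19e-06), which was -0.998 and so just under 2-fold without mutant replicate 1. Neither gene overlapped between the groups. The sum of *Fads1*, *Fads2*, *Elovl2* and *Elovl5* was 659, 676 and 666 FPKM in WT livers and 316, 317 and 316 FPKM in mutant livers, while that of *Scd1* and *Elovl6* was 1.39, 1.38 and 1.42 FPKM in WT and 285, 290 and 291 FPKM in mutant livers. *Elovl1*, an elongase of very long chains, had 11.1, 11.3 and 10.2 FPKM in WT and 17.2, 20.5 and 13.1 FPKM in mutant livers, a log2 fold change of 0.58 (limma adjusted p = 0.0199) under 2-fold; it overlaps *Cdc20* on the opposite strand, which was at 5.19 FPKM in WT and 27.9 FPKM in mutant livers on average. *Elovl7* was under the filter, with 0.3103, 0.311 and 0.235 FPKM in WT and 0.0755, 0.0589 and 0 FPKM in mutant livers.

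**Figure D3:**
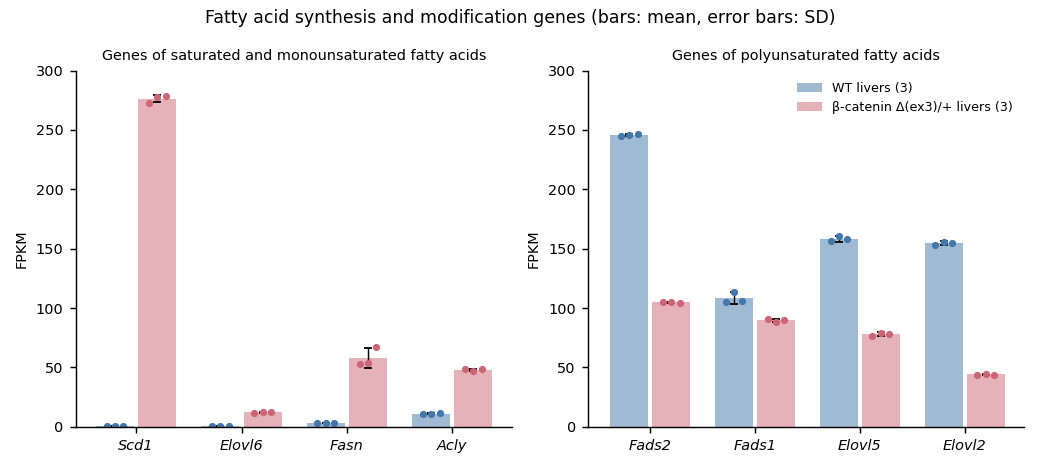
FPKM, on a linear axis from 0, of 4 genes that make saturated and monounsaturated fatty acids (left) and 4 that make polyunsaturated fatty acids (right); bars are means of 3 livers, error bars SD, points single livers, blue WT and red *β-catenin Δ(ex3)/+*. The genes on the left are higher in every mutant liver, *Scd1* at 273 to 278 FPKM against 0.7501 to 0.839 FPKM, and those on the right lower in every mutant liver, although *Fads1* was under 2-fold.

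Among the regulators, ChREBP and Spot 14 were higher in the mutant livers, and SREBP-1 did not pass the fold change threshold. *Thrsp* (ENSMUSG00000035686, chr7:97412938-97417730), Spot 14, a small protein of lipogenic tissues that responds to thyroid hormone and carbohydrate, had 0.222, 0.167 and 0.384 FPKM in WT and 163, 163 and 167 FPKM in mutant livers. Its ratio of 639 was the highest of the lipid genes with a value above 0 in each liver, with a log2 fold change of 7.04 ± 0.0709 (SE; limma adjusted p = 3.49e-08) at rank 19 of all genes tested by increase. With a WT mean of 0.258 FPKM, *Thrsp* passed the filter only through the mutant livers and had to be higher. *Mlxipl* (ENSMUSG00000005373, chr5:135089890-135138382), which encodes ChREBP, had 19.4, 18.8 and 18.98 FPKM in WT and 50.3, 54.97 and 54.6 FPKM in mutant livers, and its log2 fold change was 1.43 ± 0.0467 (SE; limma adjusted p = 2.79e-06). *Srebf1*, which encodes SREBP-1a and SREBP-1c and is read here as 1 gene, had 20.6, 16.95 and 20.001 FPKM in WT and 29.4, 29.3 and 30.3 FPKM in mutant livers, without overlap and with a log2 fold change of 0.61 ± 0.0766 (SE; limma adjusted p = 0.0009398). *Mid1ip1*, the paralog of *Thrsp* whose product promotes the assembly of acetyl-CoA carboxylase, had 19.02, 16.8 and 18.98 FPKM in WT and 13.2, 41.5 and 39.8 FPKM in mutant livers. Mutant replicate 1 was below every WT liver and the other mutant livers above, so that its log2 fold change was 0.60 (limma adjusted p = 0.275) with all livers and 1.11 (limma adjusted p = 0.000265) without that replicate.

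In triglyceride synthesis *Gpam*, *Lpin1* and *Lpin2* were higher, and *Lpin3* and the acyltransferases of the last step were under 2-fold. *Gpam* (ENSMUSG00000024978, chr19:55067268-55127216), the mitochondrial glycerol-3-phosphate acyltransferase that commits fatty acids to glycerolipids, had 7.22, 7.42 and 6.93 FPKM in WT and 19.6, 19.7 and 20.3 FPKM in mutant livers, and its log2 fold change was 1.35 ± 0.0443 (SE; limma adjusted p = 2.87e-06). *Lpin1* (ENSMUSG00000020593, chr12:16535669-16646966), a phosphatidate phosphatase that makes diacylglycerol, had 0.182, 0.109 and 1.71 FPKM in WT and 5.96, 6.15 and 5.66 FPKM in mutant livers. WT replicate 3 was well above the other WT livers and still below each mutant liver, and the log2 fold change was 2.18 ± 0.34 (SE; limma adjusted p = 0.00245). *Lpin2* (ENSMUSG00000024052, chr17:71182560-71249817), the lipin that predominates in adult liver, had 0.423, 0.528 and 0.431 FPKM in WT and 5.86, 5.71 and 5.98 FPKM in mutant livers, and its log2 fold change was 2.23 ± 0.05697 (SE; limma adjusted p = 1.00e-06).

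The diacylglycerol acyltransferases, which add the last fatty acid, moved little. *Dgat2*, the form that handles newly made fatty acids in liver, had 115, 107 and 111 FPKM in WT and 132, 127 and 127 FPKM in mutant livers (log2 fold change 0.21 ± 0.0384, limma adjusted p = 0.00463). *Dgat1* had 5.61, 5.76 and 5.81 FPKM in WT and 4.88, 4.65 and 5.39 FPKM in mutant livers (log2 fold change -0.17 ± 0.0613, limma adjusted p = 0.0524). *Agpat2*, *Agpat3* and *Lpin3* had log2 fold changes of 0.40, 0.24 and 0.37, all under 2-fold, and that of *Agpat3* was -0.063 with quantile-normalized values. *Mogat1*, a monoacylglycerol acyltransferase, was under the filter with 0.206, 0.0253 and 0.118 FPKM in WT and 0.329, 0.228 and 0.392 FPKM in mutant livers. Of the 8 genes tested in this role 3 were higher and 0 lower, against 8.17% and 4.52% of all genes tested. *Lpin2*, with a WT mean of 0.461 FPKM, passed the filter only through the mutant livers and had to be higher.

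Lipid droplet genes that are at home in fat tissue were higher in the mutant livers from levels near 0, whereas the main perilipin of hepatocytes was not. *Plin1* (ENSMUSG00000030546, chr7:79720218-79732835), the perilipin of adipocyte droplets, was listed at 0.00872, 0 and 0 FPKM in WT and had 1.61, 1.79 and 1.302 FPKM in mutant livers (log2 fold change 1.35 ± 0.0853, limma adjusted p = 4.59e-05). *Cidea* (ENSMUSG00000024526, chr18:67343604-67367785), a droplet fusion protein of brown fat, was listed at 0.166, 0.237 and 0 FPKM in WT and had 4.82, 5.03 and 4.403 FPKM in mutant livers (log2 fold change 2.35 ± 0.09797, limma adjusted p = 7.91e-06). These genes were at or close to 0 in the WT livers and over 1 FPKM in every mutant liver.

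The other CIDE and perilipin genes had values above 0 in every WT liver. The WT mean of *Plin4* was nevertheless 0.201 FPKM, close to the 0.134 FPKM of *Cidea*. *Cidec* (ENSMUSG00000030278, chr6:113424634-113435760), a droplet fusion protein of white fat and of fatty liver, had 0.673, 0.641 and 1.01 FPKM in WT and 3.24, 2.74 and 3.0002 FPKM in mutant livers, and its log2 fold change was 1.17 ± 0.10 (SE; limma adjusted p = 0.000178). *Plin4* (ENSMUSG00000002831, chr17:56100591-56109803) had 0.227, 0.182 and 0.196 FPKM in WT and 1.46, 1.51 and 1.68 FPKM in mutant livers, and its log2 fold change was 1.08 ± 0.0619 (SE; limma adjusted p = 2.99e-05) and was 0.98 with quantile-normalized values. *Plin2*, the perilipin that coats hepatocyte droplets, had 89.9, 91.7 and 85.02 FPKM in WT and 66.9, 65.5 and 63.4 FPKM in mutant livers, and its log2 fold change was -0.44 ± 0.0424 (SE; limma adjusted p = 0.000285) under 2-fold. It made up 83.1%, 85.8% and 83.7% of the summed FPKM of *Plin1* to *Plin5* in WT livers and 69.7%, 69.5% and 69.0% in mutant livers. *Cideb*, the CIDE gene of hepatocytes, had 128, 133 and 129.7 FPKM in WT and 161, 163 and 167 FPKM in mutant livers (log2 fold change 0.33 ± 0.0306, limma adjusted p = 0.000247), and *Plin3*, *Plin5*, *Fitm1* and *Fitm2* lay between -0.66 and 0.61 on the log2 scale. In all 4 of 10 droplet genes were higher and 0 lower, against 8.17% and 4.52% of all genes tested. Of the 4, only *Cidec* had a WT mean of at least 0.5 FPKM. *Plin1*, *Cidea* and *Plin4* passed the filter only through the mutant livers, where they had to be higher. By the adjusted p-value alone 8 were higher and 2, *Plin2* and *Fitm2*, lower.

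Markers of adipocytes moved with these droplet genes. All 6 of the 10 listed adipocyte markers that were tested were higher in the mutant livers and all 10 did not overlap between the groups, with a summed level of 74.8 to 76.9 FPKM in WT and 307 to 315 FPKM in mutant livers, most of it *Car3*, which liver also expresses. *Adipoq*, the adipocyte hormone adiponectin, had 0.0734, 0 and 0 FPKM in WT and 5.86, 4.78 and 6.26 FPKM in mutant livers. *Cfd*, adipsin, had 0.5897, 0.087995 and 0 FPKM in WT and 53.2, 50.4 and 51.5 FPKM in mutant livers. *Ucp1*, the uncoupling protein of brown fat, had 0, 0 and 0.05001 FPKM in WT and 4.72, 4.82 and 5.03 FPKM in mutant livers, and *Lep*, leptin, had 0.0121, 0 and 0 FPKM in WT and 0.485, 0.432 and 0.297 FPKM in mutant livers, higher in each mutant liver and under the filter. *Plin1*, *Plin4*, *Cidea*, *Cidec*, *Fabp4*, *Lipe*, *Scd1*, *Fasn*, *Acly* and *Thrsp* are also expressed in adipocytes, and the part of adipocyte RNA in their levels was not tested. Of the other cell types, 7 of 10 stellate cell markers, 2 of 10 endothelial markers and 5 of 9 erythroid markers were lower in the mutant livers and 0 of them higher, and 5 of 10 macrophage markers were higher and 1 lower.

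**Figure D4:**
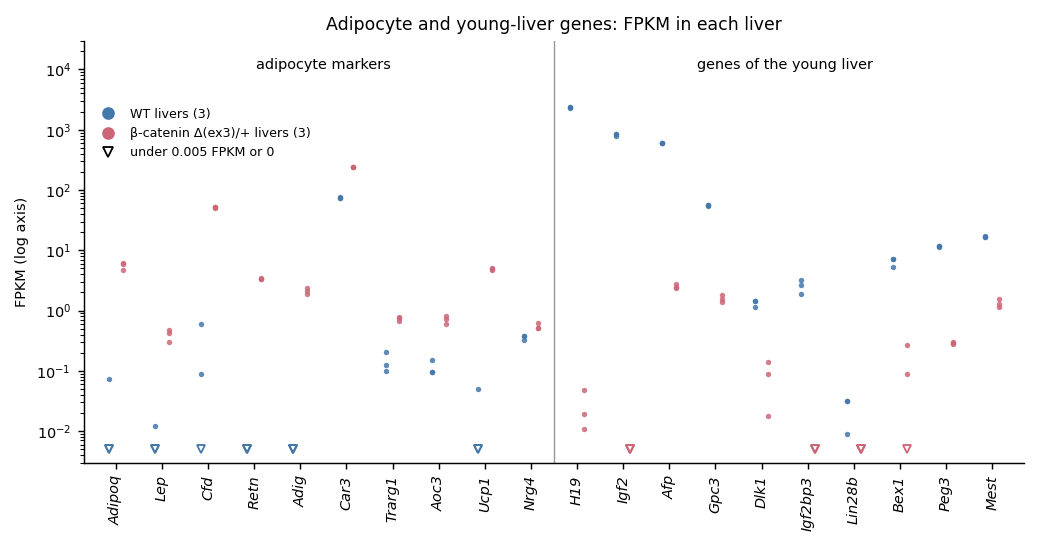
FPKM, on a log axis, of 10 adipocyte markers (left) and 10 genes of the young liver (right) in each liver; each point is 1 liver, blue WT and red *β-catenin Δ(ex3)/+*, and open triangles are values under 0.005 FPKM or 0. All 10 adipocyte markers are higher in every mutant liver than in any WT liver, and all 10 young-liver genes are lower.

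Lipolysis held 1 changed gene, the inhibitor *G0s2* (ENSMUSG00000009633, chr1:193272161-193273217), whose product binds and restrains the triglyceride lipase ATGL. It had 186, 149 and 192 FPKM in WT and 28.2, 27.7 and 27.2 FPKM in mutant livers, and its log2 fold change was -2.61 ± 0.0972 (SE; limma adjusted p = 4.82e-06). *Pnpla2*, the gene of ATGL itself, had 19.2, 16.2 and 15.8 FPKM in WT and 23.5, 25.3 and 27.97 FPKM in mutant livers, without overlap and under 2-fold (log2 fold change 0.56 ± 0.0965, limma adjusted p = 0.00356). *Pnpla3*, the droplet lipase linked to fatty liver and a known SREBP-1c target, had 0.539, 1.01 and 0.928 FPKM in WT and 1.19, 1.51 and 0.873 FPKM in mutant livers, which overlapped (log2 fold change 0.26 ± 0.15, limma adjusted p = 0.181). *Lipe*, hormone-sensitive lipase, had 1.65, 1.68 and 1.62 FPKM in WT and 3.403, 3.104 and 3.604 FPKM in mutant livers, under 2-fold on the log2(FPKM + 1) scale (log2 fold change 0.72 ± 0.0625, limma adjusted p = 0.000181). *Mgll*, monoacylglycerol lipase, ranged over 7.07, 32.3 and 2.79 FPKM in WT and 1.57, 3.45 and 4.47 FPKM in mutant livers, and its log2 fold change of -1.34 ± 0.80 (SE; limma adjusted p = 0.198) did not exceed the spread between livers. *Pnpla5* was under the filter, with 0.131, 0.0655 and 0.195 FPKM in WT and 0.0723, 0.0272 and 0.144 FPKM in mutant livers.

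Of the fatty acid binding proteins, *Fabp5* and *Fabp2* were lower in the mutant livers, and *Fabp1* and *Fabp4* were under 2-fold. *Fabp5* (ENSMUSG00000027533, chr3:10012548-10016607), the epidermal form, had 243, 258 and 232 FPKM in WT and 10.7, 10.1 and 10.1 FPKM in mutant livers, the largest decrease of the 49 genes, with a WT mean 23.7 times the mutant mean and a log2 fold change of -4.44 ± 0.0504 (SE; limma adjusted p = 4.43e-08). *Fabp2* (ENSMUSG00000023057, chr3:122895072-122899506), the intestinal form, had 129.5, 133 and 136 FPKM in WT and 23.6, 20.1 and 18.8 FPKM in mutant livers, and its log2 fold change was -2.62 ± 0.0841 (SE; limma adjusted p = 2.62e-06). Each of these was lower in every mutant liver than in any WT liver. Of 8 intestine markers only 2 passed the filter, and both were lower in the mutant livers, against 4.52% of all genes tested. The intestine marker *Krt20*, with a mutant mean of 0.00887 FPKM, passed it only through the WT livers and had to be lower. *Fabp1*, the liver form, had 3565, 3829 and 3689 FPKM in WT and 3826, 3927 and 3978 FPKM in mutant livers, the highest levels of the list, with a log2 fold change of 0.08 ± 0.0323 (SE; limma adjusted p = 0.0718) that was -0.11 with median-ratio scaling and -0.24 with quantile-normalized values. *Fabp4*, the adipocyte form, had 7.29, 7.88 and 7.49 FPKM in WT and 13.7, 13.2 and 12.8 FPKM in mutant livers, under 2-fold, and the ratio of *Fabp5* to *Fabp4* went from 33.3, 32.7 and 31.0 in WT to 0.784, 0.764 and 0.795 in mutant livers. *Cd36*, a fatty acid transporter, had 5.54, 5.15 and 4.76 FPKM in WT and 9.59, 8.12 and 5.64 FPKM in mutant livers (log2 fold change 0.49 ± 0.17, limma adjusted p = 0.0528), which passed neither threshold.

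**Figure D5:**
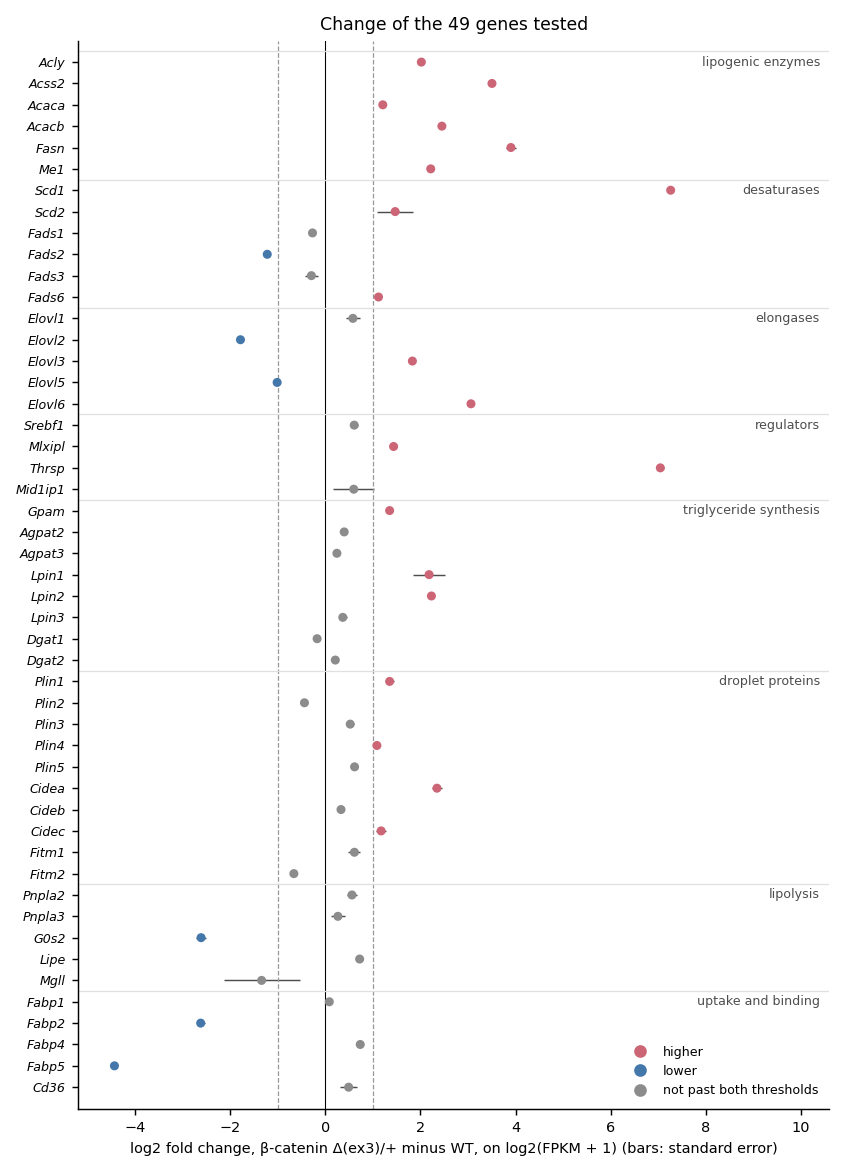
Log2 fold change of the 49 genes tested, mutant minus WT, on the log2(FPKM + 1) scale, with standard errors as bars and dashed lines at a fold change of 2; red points are higher, blue points lower and grey points not past both thresholds. All 6 lipogenic enzymes are red, desaturases and elongases fall on both sides, and the 23 grey genes lie between -1.34 for *Mgll* and 0.73 for *Fabp4*.

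Genes of the same pathways that were not on the list moved in both directions. Of 62 such genes 56 were tested, of which 10 were higher, or 6 with quantile-normalized values, and 5 lower in the mutant livers, against 8.17% and 4.52% of all genes tested. Their median log2 fold change was 0.38, beside 0.14 over all genes tested. The largest increases were those of the carboxylesterases *Ces1f* and *Ces3a*, with log2 fold changes of 4.69 and 3.06 (limma adjusted p = 3.88e-07 and 7.31e-08). These genes have close paralogs in a cluster, so that fragments could be split between copies. *Ces1f* had 1.53, 2.27 and 1.88 FPKM in WT and 74.03, 73.9 and 71.2 FPKM in mutant livers, and *Ces3a* 42.5, 46.1 and 42.7 FPKM and 368, 376 and 374 FPKM. *Insig1*, which retains SREBP in the endoplasmic reticulum and is itself an SREBP target, had 12.5, 12.7 and 12.4 FPKM in WT and 78.98, 78.5 and 75.5 FPKM in mutant livers (log2 fold change 2.54 ± 0.0364, limma adjusted p = 9.91e-08). *Fabp7* and the monoacylglycerol lipase *Abhd6* followed, with log2 fold changes of 1.77 and 1.56.

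The 5 lower genes of the pathway dealt with supply of fatty acids as well as storage. *Lpl* (ENSMUSG00000015568, chr8:68880491-68906934), lipoprotein lipase, which releases fatty acids from circulating triglyceride and which liver makes mainly before weaning, had 42.5, 43.7 and 41.9 FPKM in WT and 5.76, 5.81 and 5.597 FPKM in mutant livers, and its log2 fold change was -2.70 ± 0.0398 (SE; limma adjusted p = 1.13e-07). *Gpat3*, a glycerol-3-phosphate acyltransferase of the endoplasmic reticulum, had 7.65, 7.41 and 7.26 FPKM in WT and 2.32, 2.39 and 1.93 FPKM in mutant livers (log2 fold change -1.40), opposite to *Gpam*. *Slc27a2*, a transporter and activator of very long chains, had 315, 317 and 313 FPKM and 126, 123 and 124 FPKM (log2 fold change -1.33). *Lipc*, hepatic lipase, had a log2 fold change of -1.22. *Hilpda*, a further inhibitor of ATGL, had 4.84, 4.63 and 6.04 FPKM in WT and 1.71, 2.77 and 1.83 FPKM in mutant livers, a change that lay at the fold threshold.

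Pathways that share regulators with fatty acid synthesis were also examined. All 17 genes of cholesterol synthesis and uptake, targets of SREBP-2, were higher in the mutant livers, against 8.17% of all genes tested. Their log2 fold changes ran from 1.07 to 3.31. Among targets of PPARα, the receptor that drives fatty acid oxidation in fasting, *Cyp4a14*, *Fgf21* and *Cpt1a* were lower, with log2 fold changes of -5.78, -5.25 and -1.60, while *Ehhadh* and *Acot1*, enzymes of peroxisomal oxidation and acyl-CoA hydrolysis, rose by 2.22 and 1.68 on the log2 scale. No count is given for that list. *Pklr*, a ChREBP target, had 28.7, 29.7 and 29.7 FPKM in WT and 45.1, 42.8 and 43.4 FPKM in mutant livers, without overlap and under 2-fold (log2 fold change 0.56, limma adjusted p = 6.23e-05).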

How the data were processed

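RNA from 6 mouse livers was sequenced, 3 WT and 3 *β-catenin Δ(ex3)/+*, and grouped by the genotype in the sample labels. The labels number the livers of a group and say no more of their origin, so p-values measure only the spread between these livers, which may be technical. The authors deposited 1 table that gives each gene an FPKM value per library, which corrects for transcript length and for the number of mapped fragments. The submitters' processing notes name cutadapt 1.9, HISAT2 2.0.4, StringTie 1.3.4d, DESeq2 and edgeR. The build, the annotation and the strand setting are not given in the sources used here. Of the 31950 genes, 28911 have the start and end of GENCODE M21 (GRCm38), and coordinates are those of the table. Libraries were prepared with dUTP, and genes that overlap on opposite strands cannot be told apart if counting ignored strand.

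FPKM are not counts, so no count model was used and no counting intervals are given. Depth was estimated from the steps between low values in 8644 single-exon genes, searched between 10 and 30 M fragments; 20.6% to 28.4% of these values lay within 0.02 of a step, against 4% by chance, and a doubled depth gives the same steps. Values of log2(FPKM + 1) were fitted for the 13243 genes with a mean of at least 0.5 FPKM (limma 3.58.1 in R 4.3.3: lmFit, eBayes with an intensity trend, no block), with Benjamini-Hochberg adjustment over all of them. Calls needed an adjusted p-value under 0.05 and a fold change of at least 2, as in the study's methods. The fit was tested on simulated data. Tables and plots were made in Python 3.11.15 with pandas 2.3.3, numpy 2.4.6 and matplotlib 3.10.9.

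The lipid genes, the further lists and the rule for named genes were chosen with earlier results of these data known, so no test was made of a list. Named are all called genes of the list, the defining gene of each role, genes under the filter, up to 5 further pathway genes that rose most and 5 that fell most, and genes of the other lists that touch a label. Other lipid genes were named beside them for their role. The alternatives were a pseudocount of 0.1, no filter, a mean of at least 1 FPKM, a fit that omitted the intensity trend, 2 scalings (median-ratio and quantile), omission of 1 liver at a time, a block for replicate number, and calls by the adjusted p-value with no fold threshold. Some genes of the further lists, and counts that include them, are not reported here.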

Additional observations from a re-analysis of the deposited data

How the results depend on the processing

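Across the pseudocount, the filters, the scalings and eBayes without a trend, 18 to 20 of the lipid genes were higher and 6 lower, and with each liver left out in turn 19 to 20 were higher and 5 to 6 lower. With the adjusted p-value alone 33 were higher and 9 lower. Of the further pathway genes 6 were higher with quantile normalization, against 10, and 29 higher and 15 lower with the adjusted p-value alone. Over all genes, a pseudocount of 0.1 gave 1706 higher and 999 lower, and the adjusted p-value alone 4952 and 2599. The median log2 fold change of the lipid genes, 0.61, was 0.42 with median-ratio scaling and 0.31 with quantile normalization, and 0.54 to 0.66 with each liver left out. *Agpat3* reversed to -0.063 with quantile normalization, and *Fabp1* to -0.11 with median-ratio scaling and -0.24 with quantile normalization. Of 634 comparisons of single lipid genes 623 left direction and call as they were, 7 became weaker (*Scd2*, *Fads6*, *Elovl5* and *Plin4*), 1 stronger (*Mid1ip1*) and 3 reversed. The causes were not tested.

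With the replicate number as a block, 20 lipid genes were higher and 6 lower, and over all genes 1075 and 598. Livers with the same number deviated together by a mean correlation of 0.0142, so the numbers were not taken as a pairing, and the block changed no call of a lipid gene. Since depth was estimated only from the low values, no interval is given for genes near 0 FPKM in the WT livers, such as *Plin1*, *Elovl3* and *Scd2*.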
